A study of Mus musculus with 12 samples.

Results

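Transcripts of inflammatory caspases and of receptors and ligands of the interleukin-1 (IL-1) family were examined in CD4+ T cells of mouse Peyer's patches, clusters of lymphoid follicles in the gut wall. The 10 genes, Casp1, Casp4, Il1r2, Il1r1, Il1rl1, Il18r1, Il18rap, Il1rn, Il18 and Nlrp3, were taken as a set because Casp1, Casp4 and Il1r2 were among the transcripts that differed most between T follicular helper (Tfh) cells and other CD4+ cells in these arrays. Of the 10 genes, 8 had a probe set named for them alone, 1 each, among 19937 genes with such a probe set; Il1r1 and Il1rl1 were not analysed here. A filter on low values, which kept genes whose level exceeded the median probe set of the same array on 3 or more arrays, was passed by 5 of them (Casp1, Casp4, Il1r2, Il18r1 and Il18rap) and by 11240 genes in all.

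RNA was measured on 12 Affymetrix mouse gene arrays, 3 for each of 4 sorted groups. All mice carried the IL-21eGFP bacterial artificial chromosome transgene, whose green fluorescent protein (GFP) serves as reporter of Il21, which encodes the helper cytokine IL-21, and the sort kept CD4+ cells negative for MHC class II and Epcam. Tfh cells were sorted as CXCR5+PD1+, with the follicle-homing receptor CXCR5 and the inhibitory receptor PD-1, and split into GFP+ and GFP- cells; the remaining groups were GFP- and either CXCR5+PD1- or CXCR5-PD1-. The sorting description does not name the CXCR5+PD1- population, which is known here from titles and characteristics. Strain, age and the number of mice behind a sample are not given in the sources used here, nor whether the replicates are different animals; a p-value therefore speaks of the spread among these samples, and between replicates 1 and 2 that spread may be technical. Group values are means of log2 expression ± SD (n = 3), and differences carry their SE.

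Caspase-1 and caspase-4 (caspase-11 in older mouse nomenclature) are the inflammatory caspases. Caspase-1 is activated in inflammasomes, protein assemblies seeded by sensors such as NLRP3, and cuts the precursors of IL-1beta and IL-18 into active cytokines, while caspase-4 is activated by intracellular lipopolysaccharide; both can cut gasdermin D, which opens pores in the cell membrane. IL-1 signals through the receptor encoded by Il1r1, and the product of Il1r2 is a decoy that binds IL-1 without signalling; in follicles the decoy is best known from T follicular regulatory cells. Il1rn encodes a soluble antagonist of the IL-1 receptor, and Il18r1 and Il18rap encode the chains of the IL-18 receptor, which is known in T helper 1 and other effector cells.

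Most of the genes lie in clusters, while Il1rn, Il18 and Nlrp3 had no gene of the set as a direct neighbour. In the order of coding genes in the RefSeq annotation, Casp1, Casp4 and Casp12 were direct neighbours, and Il1r2, Il1r1, Il1rl2, Il1rl1, Il18r1 and Il18rap formed 1 uninterrupted run. The RefSeq promoter windows (250 bases before to 50 after the annotated start, the window furthest upstream where there were several) are shown for the 3 genes higher in Tfh cells and for Il18r1, the receptor gene that was lower, because these 4 carry the differences between gates. Coordinates are those of GRCm38.p6, and capitals mark matches to the motifs described after the sequences.
Casp1, chr9:5298267-5298566, plus strand: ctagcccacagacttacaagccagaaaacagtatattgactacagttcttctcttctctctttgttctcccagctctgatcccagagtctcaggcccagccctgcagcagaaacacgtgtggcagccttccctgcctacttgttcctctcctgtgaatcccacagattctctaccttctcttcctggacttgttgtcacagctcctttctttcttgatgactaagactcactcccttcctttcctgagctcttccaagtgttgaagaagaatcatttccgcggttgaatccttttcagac
Casp4, chr9:5308599-5308898, plus strand: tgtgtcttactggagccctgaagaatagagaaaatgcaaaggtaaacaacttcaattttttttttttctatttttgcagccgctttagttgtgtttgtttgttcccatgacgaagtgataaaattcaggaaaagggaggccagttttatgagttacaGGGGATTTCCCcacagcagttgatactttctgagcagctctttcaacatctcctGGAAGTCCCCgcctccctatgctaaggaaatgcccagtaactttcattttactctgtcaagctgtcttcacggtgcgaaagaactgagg
Il1r2, chr1:40085843-40086142, plus strand: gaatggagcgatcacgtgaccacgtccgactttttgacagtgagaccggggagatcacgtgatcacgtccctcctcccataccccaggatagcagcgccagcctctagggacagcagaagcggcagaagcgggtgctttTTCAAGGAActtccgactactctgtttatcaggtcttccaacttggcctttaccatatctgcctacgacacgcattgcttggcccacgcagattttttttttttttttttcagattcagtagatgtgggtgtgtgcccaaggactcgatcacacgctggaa
Il18r1, chr1:40465302-40465601, plus strand: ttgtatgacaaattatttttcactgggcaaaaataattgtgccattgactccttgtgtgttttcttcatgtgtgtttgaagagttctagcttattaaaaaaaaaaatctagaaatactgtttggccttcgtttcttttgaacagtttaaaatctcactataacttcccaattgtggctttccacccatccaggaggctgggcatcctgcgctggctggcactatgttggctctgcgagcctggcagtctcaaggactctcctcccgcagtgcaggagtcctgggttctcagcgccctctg

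A total of 4 motifs were searched on both strands: the consensus site of NF-kB, TGANTCA for AP-1, TTCNNNGAA for STAT factors and, for interferon regulatory factors, a pair of GAAA separated by any 2 bases. Among the most upstream windows of 27025 genes, 8.19% held the NF-kB consensus, 7.92% the AP-1 motif, 8.42% the STAT motif and 3.49% the interferon regulatory factor motif. The Casp4 window held the NF-kB consensus at 3 places, of which 2 overlap by all but 1 base from 93 bases before the start and the other begins 39 bases before it. The Il1r2 window held 1 STAT motif, 111 bases before the start. The windows of Casp1, Il18r1, Il18rap and Il18 held none of the 4, that of Nlrp3 held 1 NF-kB match and that of Il1rn held 1 AP-1 motif. A looser NF-kB pattern with any base in the 5 middle positions was present in 50.4% of all windows and was not marked.

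The division between Tfh and PD1- gates could be read in the transcripts. Cxcr5, Pdcd1 (the gene of PD-1) and Il21 were higher in both Tfh gates than in both PD1- gates, by 2.92 ± 0.19, 2.09 ± 0.20 and 3.71 ± 0.40 (limma adjusted p = 2.76e-06, 3.54e-05 and 9.26e-05; each higher in 6 of 6 Tfh arrays). CXCR5, PD-1 and GFP defined the gates, so these differences serve only as a check of the arrays. Cxcr5 passed the filter through the 6 Tfh arrays alone, so nothing is read from its call. Il21, the gene that GFP reports, differed between GFP+ and GFP- Tfh by 0.63 ± 0.56 and did not pass (limma adjusted p = 0.824). This SE uses a spread shared by the 4 groups, so it can be too large here. The SD of Il21 was 0.31 and 0.34 in GFP+ and GFP- Tfh, against 1.11 and 1.09 in CXCR5+PD1- and CXCR5-PD1- cells. Il21 stood at 10.25 to 10.82 on the GFP+ Tfh arrays and at 9.57 to 10.17 on the GFP- Tfh arrays. All GFP+ arrays were thus above all GFP- arrays, which held for 3.09% of all genes tested. Between CXCR5+PD1- and CXCR5-PD1- cells Cxcr5 differed by -0.10 ± 0.26 and did not pass, but it was below the array median on all 6 arrays, so nothing is read from this about the gate. The characteristics of the GFP+ arrays give CXCR5- and PD1- where their titles give CXCR5+PD1+, and the titles are followed. Spread within a group was widest for GFP+ Tfh, with root mean square deviations from their group mean of 0.287 to 0.405 against 0.163 to 0.204 on the other arrays. Xist stood at 10.7 to 11.3 in replicate 3 of every group and at 4.87 to 5.49 elsewhere; this transcript is made by female cells, so replicate 3 was not a repeat of the RNA of replicate 1 or 2.

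Casp1, Casp4 and Il1r2 were each higher in every Tfh array than in any PD1- array, by about the same number of log2 units, and Il18r1 was lower in every Tfh array. These Tfh against PD1- differences chose the set and are given as a description without a test. In sorted bulk samples, fewer cells of a type and less RNA per cell cannot be told apart. Where a group lies near the array median (6.34 to 6.45), the log2 scale is compressed and a difference can be understated.

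**Figure D1:**
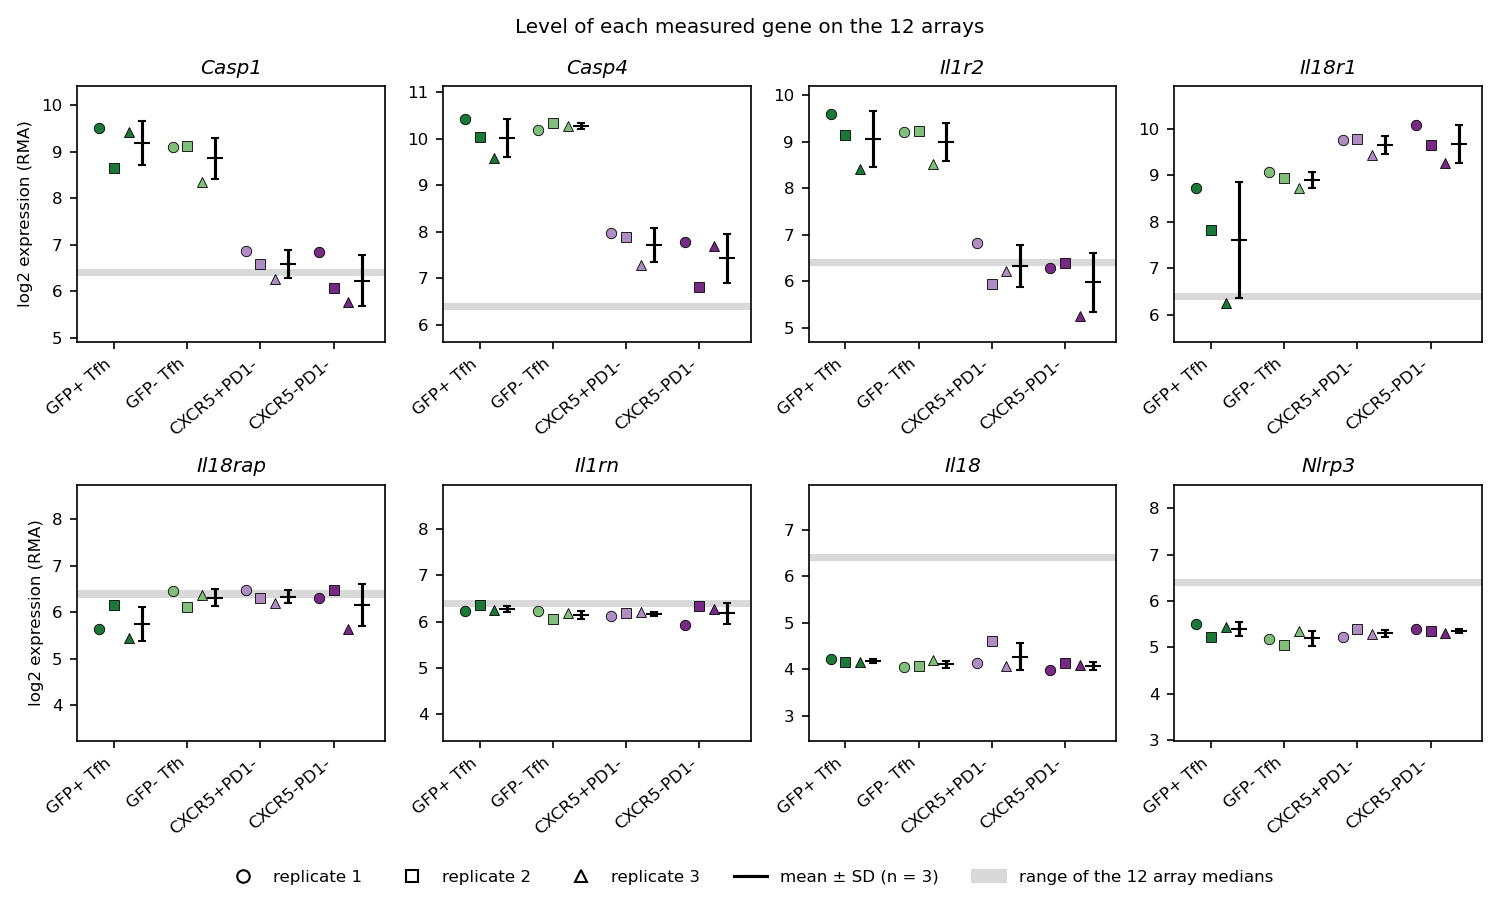
Log2 expression of the 8 measured genes on each of the 12 arrays by sorted group, with symbols for replicates 1 to 3, the mean ± SD of 3 arrays beside them and a grey band for the range of the 12 array medians; all panels span the same number of log2 units. Casp1, Casp4 and Il1r2 are high in both Tfh gates, Il18r1 is lower there and most spread in GFP+ Tfh (6.25 to 8.72), and Il1rn, Il18 and Nlrp3 lie below the array median on every array.

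In GFP+ Tfh, Casp1 stood at 9.50, 8.65 and 9.42 in replicates 1 to 3, and the GFP- Tfh arrays read 9.11, 9.12 and 8.35. The CXCR5+PD1- arrays read 6.87, 6.59 and 6.27, and the CXCR5-PD1- arrays 6.85, 6.07 and 5.77. The 6 Tfh arrays were all above the 6 PD1- arrays, with a gap of 1.48 between the nearest pair, while the GFP+ and GFP- arrays overlapped, as did the CXCR5+ and CXCR5- arrays. The mean of both Tfh gates exceeded that of both PD1- gates by 2.62 ± 0.23, or 6.16-fold, and the excess within replicate numbers was 2.45, 2.55 and 2.87. In the PD1- gates Casp1 lay near the array median (group means minus the median of 0.14 for CXCR5+PD1- and -0.18 for CXCR5-PD1-), so the fold can be too small.

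Casp4, the neighbour of Casp1, showed the same division at a level above the median in every gate. The GFP+ Tfh arrays read 10.43, 10.03 and 9.59, and the GFP- Tfh arrays, the narrowest group with an SD of 0.07, read 10.20, 10.34 and 10.27. Readings were 7.97, 7.88 and 7.29 for CXCR5+PD1- and 7.78, 6.82 and 7.69 for CXCR5-PD1- cells. The nearest Tfh and PD1- arrays were 1.62 apart, and within each pair of gates the arrays overlapped. The mean difference was 2.57 ± 0.20, or 5.95-fold, and 2.44, 2.83 and 2.44 within replicate numbers 1 to 3. Casp12, the next gene after Casp4 and a relative of both, lay between 3.43 and 3.82 on all 12 arrays, below every array median, where nothing can be read about a difference.

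Nlrp3, the sensor, and Il18, a substrate of caspase-1, were not above the array median on any array and were not tested. Nlrp3 stood at 5.39 ± 0.15, 5.20 ± 0.16, 5.30 ± 0.08 and 5.35 ± 0.05 in GFP+ Tfh, GFP- Tfh, CXCR5+PD1- and CXCR5-PD1- cells. Il18 stood at 4.17 ± 0.03, 4.10 ± 0.08, 4.27 ± 0.30 and 4.06 ± 0.08 in the same order, and its widest group held 1 high array, CXCR5+PD1- replicate 2 at 4.61. Groups next to each other in mean level overlapped for both genes. For Il18 the GFP+ Tfh arrays (4.15 to 4.21) were above the CXCR5-PD1- arrays (3.97 to 4.13). At such levels an array can read mostly background, so neither a level nor its absence is taken from these values.

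Il1r2, the decoy receptor, divided the gates in the same way. Replicates 1 to 3 of GFP+ Tfh read 9.61, 9.15 and 8.42, and those of GFP- Tfh 9.22, 9.23 and 8.52. The CXCR5+PD1- arrays followed at 6.82, 5.94 and 6.21 and the CXCR5-PD1- arrays at 6.29, 6.40 and 5.24. The nearest Tfh and PD1- arrays were 1.60 apart, the 2 Tfh gates overlapped over most of their range, and replicate 3 was the lowest array in both Tfh gates and in CXCR5-PD1- cells. The mean difference was 2.87 ± 0.26, or 7.33-fold, and 2.86, 3.02 and 2.74 within replicate numbers. With replicate 3 of every group left out it was 2.94 ± 0.20. Only 1 of the 6 PD1- arrays lay above its array median, so this fold too can be too small.

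Il1rn, the soluble antagonist, was below the array median on all 12 arrays and was not tested. GFP+ Tfh averaged 6.28 ± 0.06, GFP- Tfh 6.15 ± 0.09, CXCR5+PD1- cells 6.17 ± 0.05 and CXCR5-PD1- cells 6.18 ± 0.22. The 3 GFP+ arrays were above the 3 GFP- arrays by as little as 0.015, which is less than the SD of either group; of all genes tested 3.09% were likewise higher on every GFP+ array. They were also above the 3 CXCR5+PD1- arrays and overlapped the CXCR5-PD1- arrays.

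Il18r1, the ligand-binding chain of the IL-18 receptor, ran the other way. It was highest in the PD1- gates, where the CXCR5+PD1- arrays (9.75, 9.79 and 9.43) and the CXCR5-PD1- arrays (10.09, 9.64 and 9.27) overlapped. In GFP- Tfh it stood at 9.06, 8.93 and 8.72, below all 6 PD1- arrays, and in GFP+ Tfh at 8.72, 7.82 and 6.25. The last of these, GFP+ replicate 3, was the only one of the 12 arrays on which Il18r1 lay below the array median. Both Tfh gates together were lower by 1.41 ± 0.33 (2.66-fold), with the nearest arrays 0.20 apart; on leaving out single arrays the difference ranged from -1.69 to -1.07.

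Il18rap, the accessory chain, stayed close to the array median. Its lowest group was GFP+ Tfh with 5.65, 6.16 and 5.44, beside 6.46, 6.11 and 6.38 for GFP- Tfh. CXCR5+PD1- arrays read 6.48, 6.30 and 6.21, and CXCR5-PD1- arrays 6.32, 6.49 and 5.64. The GFP+ arrays were below all 3 CXCR5+PD1- arrays and overlapped the other groups. It passed the filter with 3 of the 12 arrays above the median, and both Tfh gates together differed from both PD1- gates by -0.21 ± 0.16.

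Across both Tfh gates and both PD1- gates, limma called 10.4% of the 11240 genes at adjusted p 0.05. Of the 5 genes of the set that passed the filter 4 were among them, 3 higher and Il18r1 lower; since the set was chosen on this contrast, nothing is read from that count. The same 4 did not overlap between the gates, which held for 7.56% of all genes tested (3.49% higher and 4.07% lower on every Tfh array). For the same reason nothing is read from this count either. Casp4 passed the filter on 12 arrays, Il18r1 on 11 and Casp1 on 9, while Il1r2 passed on 7, of which 6 were Tfh arrays, and Il18rap on 3.

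The set was tested in the comparisons that did not choose it. The first, the stated aim of the series, was GFP+ Tfh over GFP- Tfh, where limma called 0.0445% of all genes tested. Of the 5 genes tested 0 passed, in either direction, and 2 (Il18r1 and Il18rap) had an unadjusted p under 0.05; over all genes 828 of 11240 did. The GFP+ and GFP- arrays overlapped for all 5, where they did not for 8.74% of all genes tested (3.09% higher and 5.65% lower). Casp1 differed by 0.33 ± 0.32 (limma adjusted p = 0.847), Casp4 by -0.25 ± 0.28 (limma adjusted p = 0.862) and Il1r2 by 0.07 ± 0.37 (limma adjusted p = 0.974). The 95% confidence intervals were -0.37 to 1.03, -0.86 to 0.35 and -0.74 to 0.89. Casp1 was higher in GFP+ than in GFP- cells in replicates 1 and 3 and lower in replicate 2, and its sign turned to -0.04 ± 0.32 with replicate 3 of every group left out.

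Il18r1 had the largest difference of the set between the Tfh gates, -1.30 ± 0.46 (95% confidence interval -2.32 to -0.29; limma adjusted p = 0.559). This SE and interval use a spread shared by the 4 groups. The SD of Il18r1 was 1.25 in GFP+ Tfh against 0.18 in GFP- Tfh, 0.19 in CXCR5+PD1- and 0.41 in CXCR5-PD1- cells, so the interval can be too narrow. Within replicate numbers Il18r1 was lower in GFP+ cells in 3 of 3, by -0.34, -1.11 and -2.46, and the groups overlapped by 1 pair of arrays, GFP+ replicate 1 at 8.722 and GFP- replicate 3 at 8.715. The size rests on GFP+ replicate 3: without it the difference was -0.63 ± 0.27 (limma adjusted p = 0.689). Without GFP+ replicate 1 it was -1.87 ± 0.38 and passed (limma adjusted p = 0.0415, where the range over all 16 alternatives was 0.0415 to 0.9999), and 237 genes were called in that fit. Il18rap differed by -0.56 ± 0.23 (95% confidence interval -1.07 to -0.06; limma adjusted p = 0.618), lower in GFP+ cells in replicates 1 and 3 and higher by 0.05 in replicate 2. It lay above the array median on 0 of 3 GFP+ and 1 of 3 GFP- Tfh arrays, so little is read from this difference.

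Of 8 regulatory T cell markers, 1 passed the test between the Tfh gates, where 0.0445% of all genes tested did. Over the 8 markers measured (Foxp3, Il2ra, Ikzf2, Ctla4, Tnfrsf18, Itgae, Lrrc32 and Gpr83) the mean level above the array median was 1.60 to 1.84 on the GFP+ arrays and 2.36 to 2.40 on the GFP- arrays, which did not overlap; it was 1.80 to 1.97 and 1.81 to 2.26 in the CXCR5+PD1- and CXCR5-PD1- arrays. Of the 8, Il2ra, the interleukin-2 receptor alpha chain, fell in GFP+ Tfh by 2.72 ± 0.28 (limma adjusted p = 0.00451). Foxp3, the regulator that defines the lineage, differed by -0.64 ± 0.18 and did not pass (limma adjusted p = 0.416). It was lower on all 3 GFP+ arrays, as were 5.65% of all genes tested. In both Tfh gates over both PD1- gates 2 of the 8 rose (5.05% of all genes tested did), Ikzf2 by 1.87 ± 0.17 and Ctla4 by 1.05 ± 0.11 (limma adjusted p = 2.56e-05 and 9.04e-05). Another 2 fell there (5.33% of all genes tested did), Il2ra with a difference of -1.74 ± 0.20 and Foxp3 with -0.47 ± 0.13 (limma adjusted p = 0.000158 and 0.0348). The part of such cells in the values of Il18r1, Il18rap or Il1r2 was not tested.

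**Figure D2:**
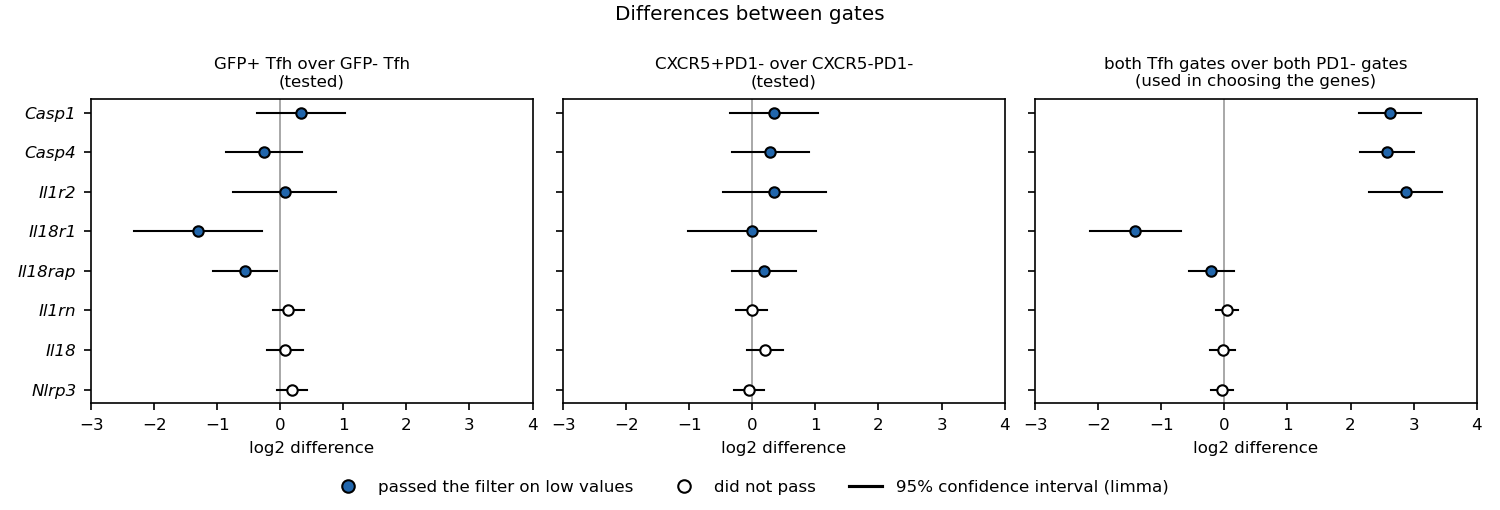
Log2 difference with its 95% confidence interval (limma) for the 8 measured genes in GFP+ over GFP- Tfh, CXCR5+PD1- over CXCR5-PD1- and both Tfh gates over both PD1- gates, with filled points for genes that passed the filter on low values. In the left panel only the intervals of Il18r1 (-2.32 to -0.29) and Il18rap (-1.07 to -0.06) exclude 0 before adjustment; in the middle panel all intervals include 0; the right panel shows the contrast that chose the genes. Each interval uses a spread shared by the 4 groups, and the spread of Il18r1 was widest in GFP+ Tfh.

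The second tested comparison was CXCR5+PD1- over CXCR5-PD1- cells, in which limma called 0 genes (0% of 11240; 137 at an unadjusted p under 0.05) and so 0 of the 5. The arrays of these gates overlapped for all 5, where they did not for 8.74% of all genes tested (5.37% higher and 3.36% lower). Casp1, Casp4 and Il1r2 differed by 0.35 ± 0.32, 0.29 ± 0.28 and 0.35 ± 0.37, each with a limma adjusted p of 1. Their 95% confidence intervals were -0.35 to 1.05, -0.32 to 0.89 and -0.47 to 1.16. Il1r2 was above the array median on 1 of these 6 arrays and Casp1 on 3, so for both genes a difference between the PD1- gates can be understated. The sign of Casp4 and of Il1r2 turned, to -0.02 in both, without CXCR5-PD1- replicate 2 and replicate 3 respectively. Il18r1 differed by -0.01 ± 0.46 and Il18rap by 0.18 ± 0.23. Casp1, Casp4 and Il1r2 thus had the Tfh gates as a high pair and the PD1- gates as a low pair, and the order within a pair was not beyond the spread.

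Other genes of the pathway were taken from whole lists, fixed with earlier results of these data known. Of 24 inflammasome and pyroptosis genes 21 had a probe set and 10 passed the filter. In both Tfh gates over both PD1- gates 2 rose (5.05% of all genes tested did) and 1 fell (5.33% of all), with a median difference of 0.05 over the 10 against -0.02 over all genes tested. P2rx7, the gene of an ATP-gated channel that can trigger the NLRP3 inflammasome, rose by 0.66 ± 0.11 (limma adjusted p = 0.00217; higher in 6 of 6 arrays). It stood at 8.94 to 9.34 in the 6 Tfh arrays and 8.31 to 8.71 in the 6 PD1- arrays. Aim2, a sensor of cytosolic DNA that activates caspase-1, rose by 0.54 ± 0.12 (limma adjusted p = 0.0115; 9.33 to 9.87 against 8.92 to 9.26). Txnip, which binds thioredoxin and has been linked to NLRP3, fell by 1.66 ± 0.11 (limma adjusted p = 3.64e-06; 8.75 to 9.40 against 10.50 to 10.96).

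The adaptor, the pore-forming substrate and the partner of NLRP3 did not pass the test. Pycard, the adaptor ASC that joins sensors to caspase-1, differed by -0.17 ± 0.12 (limma adjusted p = 0.480). Gsdmd, the gasdermin substrate of both caspases, differed by 0.02 ± 0.10 (limma adjusted p = 0.960; 95% confidence interval -0.20 to 0.23) and stood at 7.69 ± 0.19, 7.72 ± 0.04, 7.66 ± 0.17 and 7.72 ± 0.17 in the 4 groups. Nek7, a partner of NLRP3, differed by 0.82 ± 0.25 and did not pass (limma adjusted p = 0.0617). Other sensor genes and their partners (Nlrp1a, Nlrp1b, Nlrp6, Nlrp10, Nlrc4, Naip2, Naip5, Naip6 and Mefv) were below the filter.

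The remaining lists gave few calls in this contrast. Of the other caspases 3 of the 5 with a probe set were tested and 0 passed, with Casp8, which starts death receptor apoptosis, at -0.36 ± 0.13 (limma adjusted p = 0.103), Casp2 at -0.22 ± 0.10 and Casp9 at 0.03 ± 0.10. Of the IL-1 family ligands and soluble inhibitors only Il18bp, the secreted inhibitor of IL-18, was tested, and it differed by -0.14 ± 0.07 (limma adjusted p = 0.322); Il1a, Il1b, Il33 and Il1f10 did not pass the filter. Of 5 other IL-1 family receptors 3 were tested and 0 passed: Il1rap, the accessory chain shared by IL-1 and IL-33 receptors, differed by 0.11 ± 0.18, Sigirr, an inhibitory receptor, by 0.03 ± 0.08, and Il1rl2, the IL-36 receptor gene inside the receptor cluster, by -0.47 ± 0.25. Of these, Il1rap lay near the array median, at 6.20 to 6.36 in the 4 groups, and its GFP+ replicate 3 stood apart at 7.05 against 5.86 to 6.47 on the other arrays.

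Of 23 genes of receptor signalling, from the adaptor MyD88 to NF-kB, 20 had a probe set and 19 were tested. In both Tfh gates 1 rose and 2 fell, where 5.05% and 5.33% of all genes tested did. The rise of 1 in 19 is near the background, and a count of 2 falls in 19 says little. The median difference was -0.02, as over all genes tested. Rel, the NF-kB subunit c-Rel, rose by 0.47 ± 0.09 (limma adjusted p = 0.00445), from 11.26 to 11.55 in PD1- arrays to 11.66 to 11.97 in Tfh arrays. Ikbkb, the kinase IKK-beta that releases NF-kB, fell by 0.77 ± 0.12 (limma adjusted p = 0.00119), and Nfkbia, the inhibitor that NF-kB itself induces, fell by 0.28 ± 0.08 (limma adjusted p = 0.0349; lost in 12 of 21 alternatives, highest 0.128). Myd88 differed by 0.05 ± 0.23 and Traf6 by -0.16 ± 0.18. In GFP+ over GFP- Tfh and in CXCR5+PD1- over CXCR5-PD1- 0 genes of any of the 5 lists passed, against 0.0445% and 0% of all genes tested. The smallest p of the lists in the GFP comparison belonged to Ikbkb at -0.75 ± 0.17 (limma adjusted p = 0.273). Ikbkb was lower on all 3 GFP+ arrays, as were 5.65% of all genes tested.

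**Figure D3:**
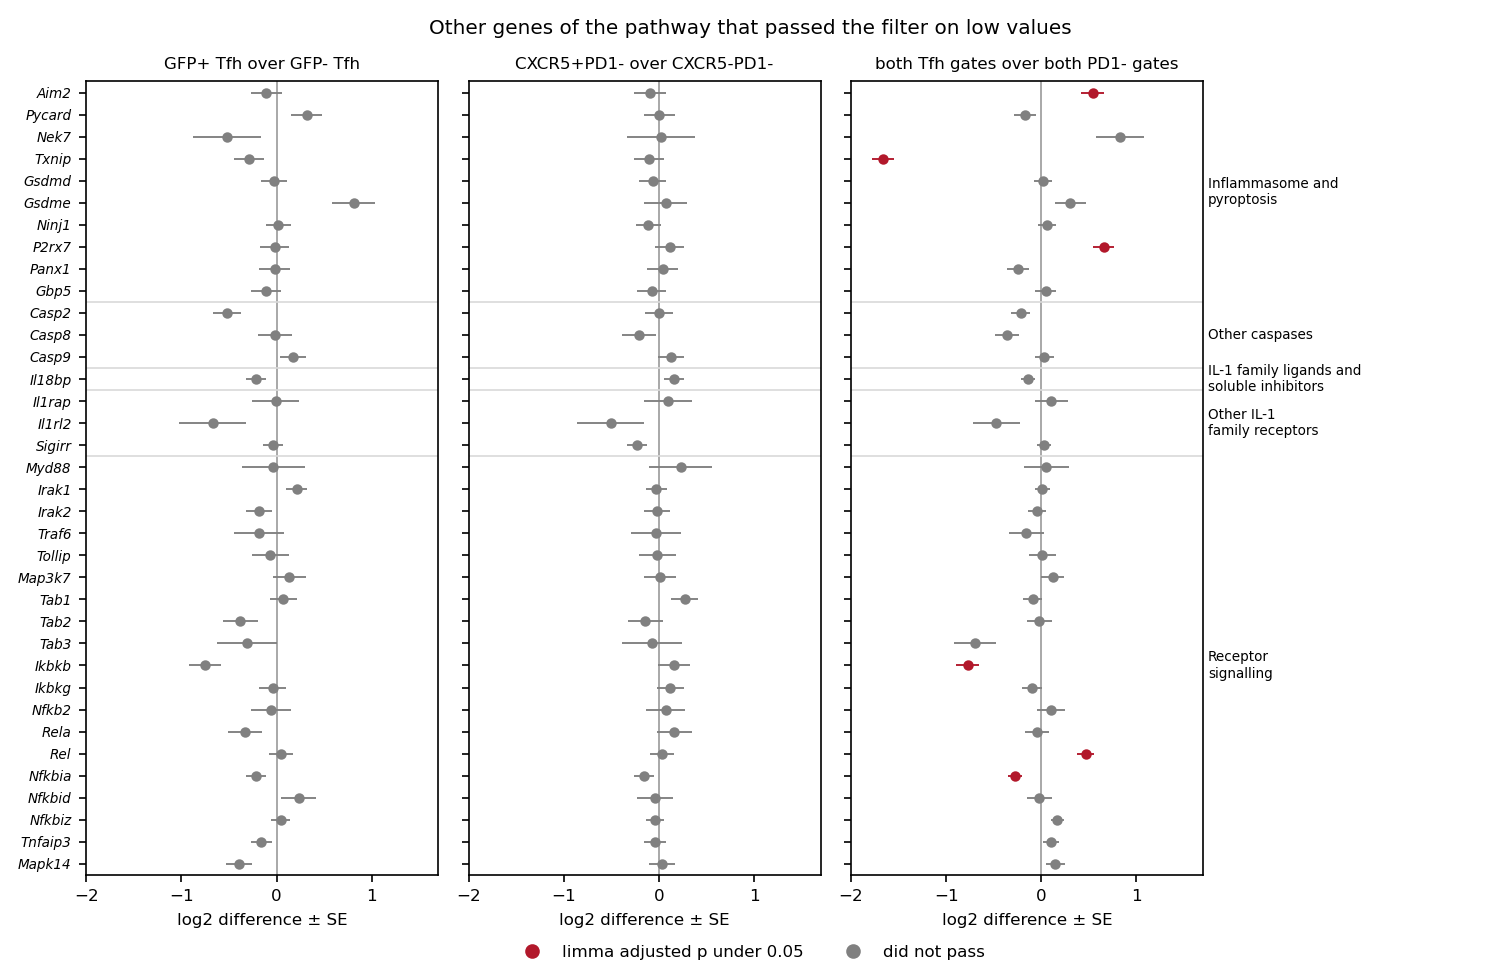
Log2 difference ± SE of the other pathway genes that passed the filter on low values, grouped by list, in the 3 comparisons; red marks a limma adjusted p under 0.05. Red points appear in the right panel only, for Aim2, P2rx7 and Rel to the right of 0 and Txnip, Ikbkb and Nfkbia to the left.

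Casp1, Casp4 and Nlrp3 are known from myeloid cells, so markers of these and other cells were read on the same arrays. Of 12 myeloid markers 4 passed the filter (Lyz2, Cd68, Fcgr3 and Cybb). Of these, 0 passed the test in any of the 3 comparisons, in which 0.0445%, 0% and 10.4% of all genes tested did. With 4 genes the count says little. Cd68 was above the array median on every array, while Csf1r, Itgam, Cd14, Adgre1 and Spi1 were among those below the filter. The mean level of the 12 relative to the array median was -0.68 to -0.38 in GFP+ Tfh, -0.58 to -0.52 in GFP- Tfh, -0.71 to -0.62 in CXCR5+PD1- and -0.84 to -0.48 in CXCR5-PD1- arrays. All 3 GFP- Tfh arrays were thus above all 3 CXCR5+PD1- arrays, as they were for Casp1 and Casp4, while every other pair of groups overlapped; the part of such cells in the levels of Casp1 and Casp4 was not tested. Among them Lyz2 differed between GFP+ and GFP- Tfh by 1.38 ± 0.38 and Cybb by -1.76 ± 0.64, and neither passed (limma adjusted p = 0.416 and 0.570). Between both Tfh gates and both PD1- gates Cybb, a subunit of the phagocyte oxidase, differed by 1.13 ± 0.45 (limma adjusted p = 0.159), with GFP- Tfh at 8.37 to 8.62, above all 6 PD1- arrays, and GFP+ Tfh at 5.33 to 7.95. B cell and epithelial markers averaged -1.16 to -0.87 and -0.70 to -0.47 over all arrays, and those of mast cells and group 2 innate lymphoid cells -1.17 to -0.85. Single genes went the other way, with Krt8 and Kit above the array median on every array. Of 2 genes tested in each list, 1 mast cell and 1 B cell gene were called higher in both Tfh gates over both PD1- gates. Of all genes tested 5.05% were, so with 2 genes each count says little. Kit rose by 0.86 ± 0.13. Pax5 differed by 0.30 ± 0.07 and overlapped between these gates. It passed the filter through the 3 GFP+ Tfh arrays alone, so nothing is read from its call. The T helper markers measured (4 of 5) averaged 4.41 to 4.94 above the array median on every array. In both Tfh gates over both PD1- gates 2 of the 4 rose, where 5.05% of all genes tested did. Cd4 rose by 0.53 ± 0.10 and Cd3g by 0.32 ± 0.09 (limma adjusted p = 0.00457 and 0.0470), and Cd3g overlapped between these gates.

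The transcripts with profiles most like those of the 3 genes were found by the root mean square difference of gene-centred log2 values over the 12 arrays, among 10518 named genes. The 12 arrays are the same for all genes, so genes with a like step between Tfh and PD1- gates come close by this measure. Closest to Casp1 were Cxcr5 (0.308), the palmitoyltransferase gene Zdhhc2 (0.387) and the phosphatase gene Ptpn13 (0.401), against 1.37 for the deviation of Casp1 from its own mean. Closest to Casp4 were the progranulin gene Grn (0.279), Ptpn13 (0.333) and Tnfsf8 (0.360). Closest to Il1r2 were the endosomal gene Eea1 (0.409), Grn (0.415) and Casp1 itself (0.432). Casp4 was the gene ranked 9 from Casp1, at 0.457, so 8 other genes were closer to Casp1 than its neighbour was.

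**Figure D4:**
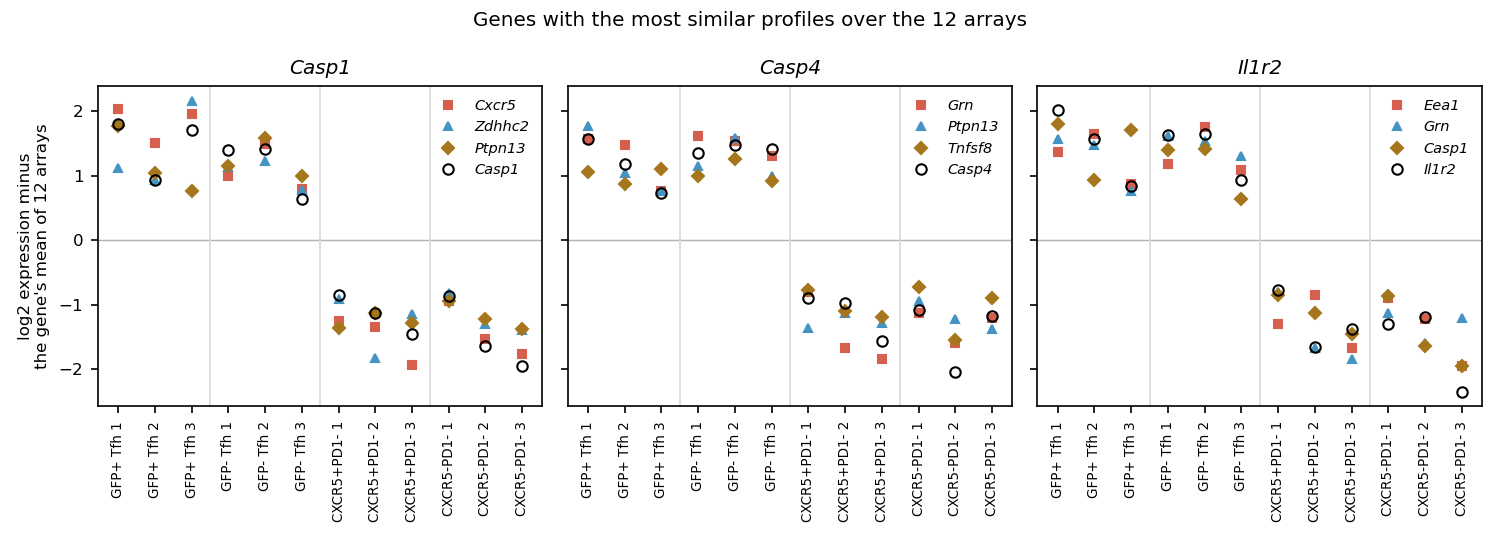
Log2 expression minus the gene's mean over the 12 arrays for Casp1, Casp4 and Il1r2 (open circles) and the 3 genes with the smallest root mean square difference from each; the x axis gives group and replicate. All genes shown lie above 0 on the 6 Tfh arrays and below 0 on the 6 PD1- arrays.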

How the data were processed

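RNA of 12 samples was hybridised to Affymetrix arrays. The authors deposited log2 values per probe set (34760 in all), and the submitters' processing notes name RMA and oligo. RMA removes background, equalises array distributions and combines probes into 1 log2 value, and it compresses low signals. Versions and the genome build are not given in the sources used here. Columns were matched to samples by accession and groups taken from titles; 0 columns were left unmapped. Depth has no meaning for arrays; their number limits the precision.

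Of the probe sets 21640 had 1 gene symbol in the platform annotation (21553 matched by gene identifier to RefSeq, assembly GRCm38.p6), 1321 had several and 11799 were unnamed here. For the 954 genes with more than 1, the probe set with the highest mean was used. Comparisons were contrasts in a single model with a mean per group over the 12 arrays (limma 3.58.1, R 4.3.3, lmFit and eBayes), with Benjamini-Hochberg adjustment over 11240 genes at 0.05; the code was tested on simulated data. Genes named are the set, the fixed pathway and marker lists (those past the threshold or with the smallest p first), the gate genes and the 3 genes with the most similar profile. The set and lists were chosen with earlier results of these data known. Promoter sequences are from RefSeq, and all 8 measured genes matched. Between arrays the highest correlation was 0.975, and 0 arrays were identical.

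Replicate numbers come from the titles, which do not say what they mark. Same-numbered arrays deviated together in CXCR5+PD1- over CXCR5-PD1- cells (correlations of deviations from the group means 0.210 to 0.353), but not in every pair in GFP+ over GFP- Tfh (0.0411 to 0.283) or over all 4 groups (-0.0195 to 0.353, with 10 of 18 pairs at or under 0.1).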

Additional observations from a re-analysis of the deposited data

How the results depend on the processing

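Differences between Tfh and PD1- gates chose the set, so their values under the 21 alternatives are a description and support nothing. The alternatives were no filter, a filter at the 70th percentile, cyclic loess, weights per array or group, the replicate block, replicate 3 of every group left out, the mean of probe sets, another moderation and each array left out. Casp1 ranged from 2.43 to 2.78, Casp4 from 2.42 to 2.68, Il1r2 from 2.69 to 3.03 and Il18r1 from -1.69 to -1.07. Genes called there numbered 1167, 883 to 1495 on leaving out single arrays and 1981 with a weight per array. In GFP+ over GFP- Tfh 5 genes were called, 3 to 237 on leaving out single arrays (237 without GFP+ replicate 1, 3 without GFP- replicate 1), 95 (14 higher, 81 lower) with a weight per array, 3 with a weight per group, 0 with replicate 3 of every group left out and 0 with only the groups compared. Genes of the set called there were 0 in all but 1 alternative (0 to 1 on leaving out arrays, Il18r1). In CXCR5+PD1- over CXCR5-PD1- 0 genes were called in all 16 alternatives.

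Signs of uncalled differences turned in GFP+ over GFP- Tfh for Casp1 (-0.14 with a weight per array, -0.0405 without replicate 3 of every group) and Il1r2 (-0.20 to 0.39 on leaving out arrays). In the CXCR5 comparison they turned for Il18r1 (0.0111 with cyclic loess, -0.21 to 0.20 on leaving out arrays), Il18rap (-0.0106 without replicate 3 of every group, -0.0717 to 0.36 on leaving out arrays), Casp4 (-0.0183 to 0.50) and Il1r2 (-0.0184 to 0.56). The causes were not tested. With the replicate block GFP+ over GFP- Tfh had 6 genes called, Tfh over PD1- gates 1247 and the CXCR5 comparison 0; it changed no call of a gene of the set. Other background corrections were not run, since only summarised values were used.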
